A study of Mus musculus with 18 samples.

Results

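The 9 genes described across 6 groups of embryoid bodies are markers of neural progenitors: Sox1, Sox3, Pax6, Olig2, Fabp7, Nes, Neurog2, Otx2 and Pou3f1. They were chosen by name, with earlier results of these data known. All 9 were measured among 22180 genes, each by 1 probe set that names a single gene. Embryoid bodies are floating aggregates of stem cells that leave pluripotency and form early cells of the germ layers. C57BL/6 mouse embryonic stem cells formed them, and total RNA was read on Affymetrix gene expression arrays, 1 sample an array. Thalidomide, a human teratogen, was given at 0.25 mM with 0.25% DMSO from the third day as embryoid bodies. RNA was taken after 24, 48 or 72 h. Controls of 24, 48 and 72 h received 0.25% DMSO per the treatment protocol, but the series description calls them unexposed and their source names count time from embryoid body formation. Each of the 6 groups held 3 arrays, called biological replicates in the labels. The labels do not say whether replicates came from separate cultures, so p-values may measure technical spread alone. The sources used here do not state whether the line was 1 clone. A re-analysis tag stands in 12 titles, those of every control and of exposed 24 h arrays, and at 48 and 72 h this tag and the exposure cannot be told apart. In exposed cultures the tag also cannot be told apart from time between 24 h and the later times.

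Neural progenitors arise when epiblast cells adopt a neural fate, and Sox1 and Sox3, with their relative Sox2, are among the first transcription factors to mark them. Pax6 and Olig2 then divide the neural tube into dorsoventral domains, Neurog2 drives progenitors towards neurons, and Fabp7 and Nes encode a lipid-binding protein and an intermediate filament of radial glia and neural stem cells. Otx2 and Pou3f1 are already active in the epiblast before neural fate and stay on in the anterior neural plate, and Nes is also made by young muscle and endothelium. None of the 9 therefore stands for neural cells by itself. In RNA of whole embryoid bodies, fewer cells of a type and less RNA per cell cannot be told apart.

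The promoter windows of the 3 genes with the highest exposure change at 72 h are shown because the 72 h values turn most on these genes. They are the 250 bases before the gene start on the + strand, from RefSeq on assembly GRCm38.p6. Capitals mark ACAAT or its reverse complement ATTGT, the core bound by SOX factors, and CCAAT or its reverse complement ATTGG, the CCAAT box. The windows are at chr10:57784673-57784922 for Fabp7, chr16:91225300-91225549 for Olig2 and chr8:12395269-12395518 for Sox1.
Fabp7: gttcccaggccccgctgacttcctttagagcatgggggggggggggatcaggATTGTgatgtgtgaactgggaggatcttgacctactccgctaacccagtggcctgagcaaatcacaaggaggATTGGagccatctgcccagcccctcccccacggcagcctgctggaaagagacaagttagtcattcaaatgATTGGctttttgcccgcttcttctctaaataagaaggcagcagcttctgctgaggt
Olig2: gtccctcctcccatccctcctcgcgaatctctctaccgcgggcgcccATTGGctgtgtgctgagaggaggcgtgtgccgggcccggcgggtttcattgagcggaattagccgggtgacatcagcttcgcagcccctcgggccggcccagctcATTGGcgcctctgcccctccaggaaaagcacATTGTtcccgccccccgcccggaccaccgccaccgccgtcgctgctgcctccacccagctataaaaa
Sox1: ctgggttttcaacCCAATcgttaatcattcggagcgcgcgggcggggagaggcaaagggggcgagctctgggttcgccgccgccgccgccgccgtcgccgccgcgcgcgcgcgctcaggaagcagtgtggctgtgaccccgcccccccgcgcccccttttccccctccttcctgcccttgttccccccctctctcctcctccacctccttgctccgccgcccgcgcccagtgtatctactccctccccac

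Of the 9 genes, 7 matched the promoter table by symbol, with 11 windows between them. The SOX core was found in 7 of the 11 windows, against 27.66% of all 32851 windows of that length, and the CCAAT box in 5 of 11, against 33.85%. Counted by gene, 6 of the 7 had a window with the SOX core and 5 of 7 had one with the CCAAT box. Genes with several windows had more chances to hold a motif. The octamer ATGCAAAT, bound by POU factors, was in none of the 11 windows and in 1.6% of all windows. The Fabp7 and Olig2 windows each hold 1 SOX core and 2 CCAAT boxes, and the Sox1 window holds 1 CCAAT box and no SOX core. A match in letters is a description and says nothing on binding. Sox3 and Pou3f1 were not matched.

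Values below are the deposited log2 signals, so a difference of 1 is a doubling, and levels of different genes are not set against each other. A change is exposed minus control unless stated, with its standard error (SE) and the Benjamini-Hochberg adjusted p of limma over 22180 genes. A gene is said to rise or fall where that p was under 0.05. Array medians ran from 5.367 to 5.462, and arrays of a group correlated across genes at r = 0.992 to 0.996. No background values were used, so a dim signal has no floor here. Spread among replicates at 72 h was large for most of the 9 genes. The pooled SD at 72 h was 0.57 for Fabp7, 0.46 for Sox1 and 0.42 for Olig2, against a median of 0.11 over all genes, and lay at the 99.9th, 99.7th and 99.4th percentile. At 24 h the SD of Fabp7 was 0.08, at the 23.8th percentile. The fit used 1 spread per gene over all 6 groups (pooled SD 0.38 for Fabp7). For most of the 9 genes SE and p may thus be too small at 72 h and too large at 24 h. Replicate 3 of 72 h was the lowest control or the highest exposed array for most of the 9 genes, so 72 h results follow with and without both arrays of that number.

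At 24 and 48 h of thalidomide most of the 9 genes lay below control, and at 72 h all 9 lay above it. Of the 9 genes, 0 passed limma's test at 24 h while 6.86% of all genes did, and 3 had an unadjusted p under 0.05, against 21.2% of all genes. The median change was -0.18, against -0.01 over all genes, with 7 genes below 0, against 11431 of 22180 genes. Of these 7, Sox1 and Pax6 lay near 0 and crossed it on leaving out 1 array. At 48 h 1 of 9 passed, Otx2, which fell, against 6.08% of all genes in either direction and 4.23% that fell. The median change was then -0.12 with 6 genes below 0, against 10825 of 22180 genes. Of these 6, Sox3 and Pou3f1 crossed 0 on leaving out 1 array. At 72 h again 0 of 9 passed, although 6 had an unadjusted p under 0.05, against 9.12% of all genes. Those 6 p-values rest on a spread pooled over all groups, which was below the 72 h spread of these genes. Only 2 of 22180 genes, or 0.00902%, passed at 72 h, and both fell. The median change of the 9 genes was 0.38 at 72 h, against 0.00 over all genes. All 9 changes were positive in 1 fit, against 51.3% of all genes, and in 26 of 27 alternatives, of which 1 tested 8 of the 9 genes. Most of these alternatives leave the 72 h changes themselves unaltered, so they could not turn a sign. The exception left out replicate 3 of both groups and gave 7 of 9.

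**Figure D1:**
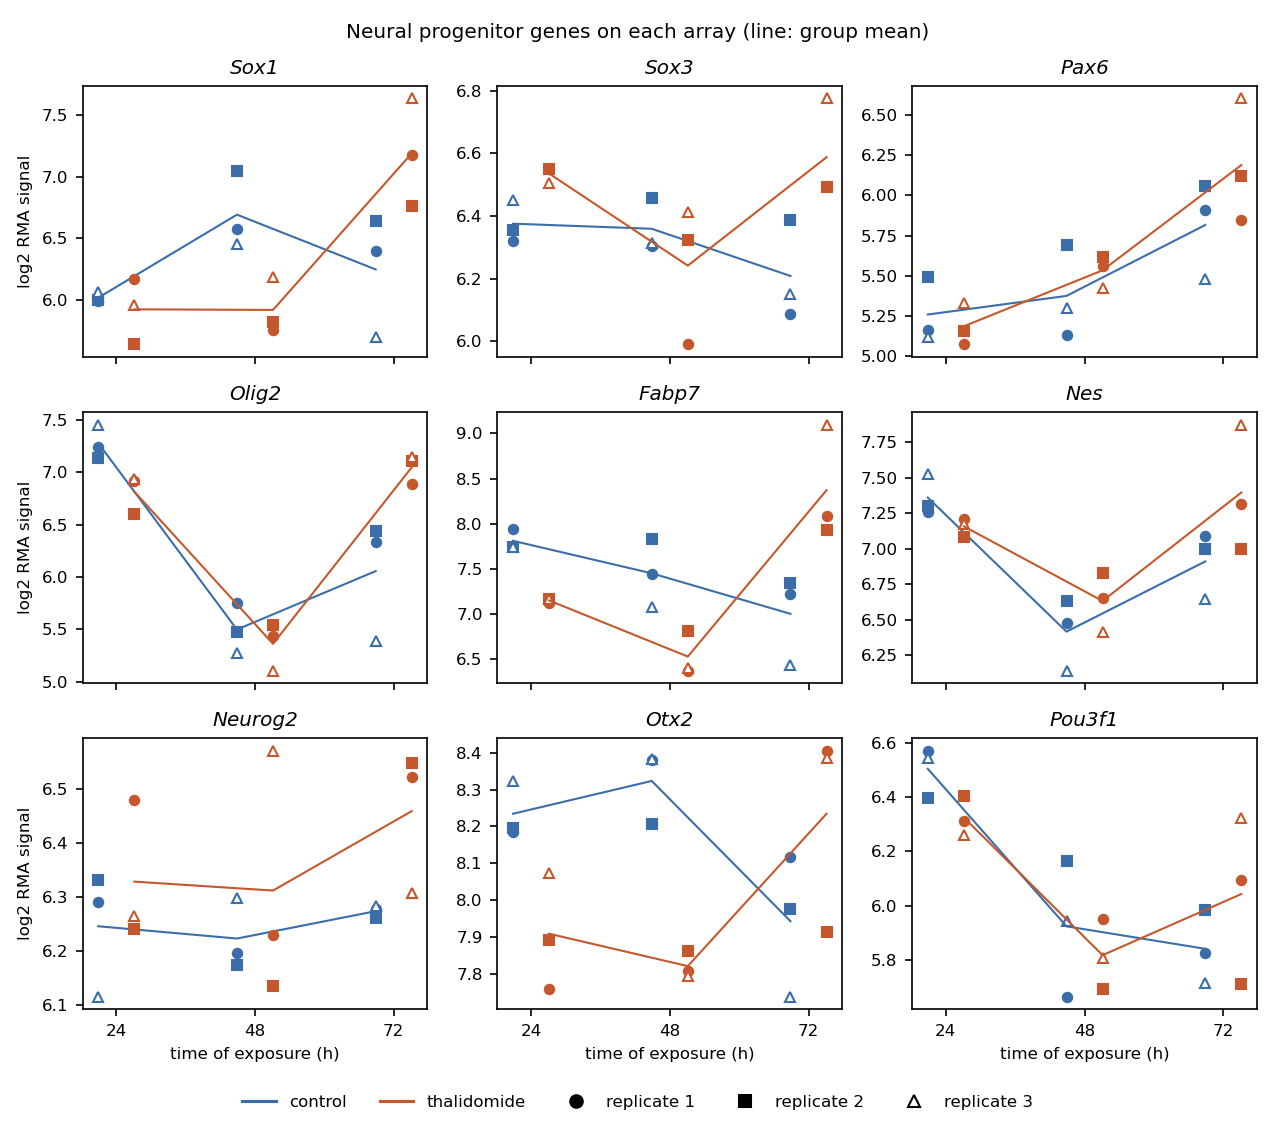
Deposited log2 signal (vertical axis, scaled per gene) of the 9 genes on each of the 18 arrays against time of exposure in hours, controls in blue and thalidomide in orange, with lines through the group means and a symbol for each replicate number. Open triangles show replicate 3, which at 72 h is the lowest control for 7 of 9 genes and the highest exposed array for 7 of 9.

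Fabp7 encodes the brain fatty acid-binding protein of radial glia. In controls its signals were 7.94, 7.74 and 7.75 at 24 h, 7.44, 7.83 and 7.08 at 48 h, and 7.22, 7.34 and 6.43 at 72 h. In exposed cultures they were 7.12, 7.16 and 7.16 at 24 h, 6.37, 6.81 and 6.40 at 48 h, and 8.09, 7.93 and 9.10 at 72 h. Every exposed array was below every control at 24 and 48 h, and every one was above at 72 h. The change was -0.66 ± 0.27 at 24 h (adjusted p = 0.1628), -0.92 ± 0.27 at 48 h (0.05324) and 1.37 ± 0.27 at 72 h (0.09605), none past the threshold. The 72 h value, 2.59-fold, was the highest change of all 22180 genes at that time, and the 48 h value was the 8th lowest. Controls fell by 0.81 from 24 to 72 h (adjusted p = 0.03341), a call lost without control replicate 1, 2 or 3 of 24 h or replicate 3 of 72 h (0.05939 to 0.1836). The exposed group of 72 h had the highest mean, 8.37 ± 0.64 (SD, n = 3), and that of 48 h the lowest, 6.53 ± 0.25. Groups next to each other in that order overlapped.

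Sox1 is the most specific of the early neural SOX factors. Its control signals were 5.99, 6.00 and 6.06 at 24 h, 6.57, 7.05 and 6.45 at 48 h, and 6.40, 6.64 and 5.70 at 72 h. Its exposed signals were 6.17, 5.64 and 5.96 at 24 h, 5.76, 5.82 and 6.18 at 48 h, and 7.17, 6.76 and 7.64 at 72 h. The groups overlapped at 24 h, all exposed arrays were low at 48 h, and all were high at 72 h. The change was -0.09 ± 0.24 at 24 h (adjusted p = 0.8734), -0.77 ± 0.24 at 48 h (0.06344) and 0.94 ± 0.24 at 72 h (0.1655). At 72 h this was the 5th highest change of all genes. Controls differed by 0.67 ± 0.24 between 24 and 48 h, with all 48 h arrays higher (0.07168). Exposed cultures had nearly the same mean at 24 and 48 h, 5.92 ± 0.27 and 5.92 ± 0.23 (SD, n = 3). The order of the 6 means ran from exposed 72 h, over control 48, 72 and 24 h, to exposed 24 and 48 h, with overlap between all neighbours.

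Sox3, the other early SOX factor of the list, varied little. Control signals were 6.32, 6.36 and 6.45 at 24 h, 6.30, 6.46 and 6.32 at 48 h, and 6.09, 6.39 and 6.15 at 72 h. Exposed signals were 6.55, 6.55 and 6.50 at 24 h, 5.99, 6.32 and 6.41 at 48 h, and 6.49, 6.49 and 6.78 at 72 h. Exposed arrays were above all controls at 24 and 72 h and overlapped them at 48 h. The changes were 0.16 ± 0.11, -0.12 ± 0.11 and 0.38 ± 0.11, with adjusted p = 0.4329, 0.5493 and 0.2485. The 24 h exposed arrays stood clear of the next group, the 24 h controls, and all other neighbours in the order overlapped.

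Olig2 is a patterning factor of ventral progenitors that later give motor neurons and oligodendrocytes. Its control signals were 7.24, 7.14 and 7.46 at 24 h, 5.75, 5.48 and 5.27 at 48 h, and 6.34, 6.44 and 5.39 at 72 h. Its exposed signals were 6.91, 6.60 and 6.94 at 24 h, 5.44, 5.54 and 5.11 at 48 h, and 6.89, 7.11 and 7.15 at 72 h. Both treatments had their lowest signals at 48 h. Exposed arrays were all lower at 24 h, overlapped at 48 h and were all higher at 72 h. The change was -0.46 ± 0.21 at 24 h (adjusted p = 0.2205), -0.14 ± 0.21 at 48 h (0.7478) and 0.99 ± 0.21 at 72 h (0.1133). The 72 h value, 1.99-fold, was the 4th highest of all genes and rests partly on control replicate 3, which lay at 5.39 while the other 72 h controls lay at 6.34 and 6.44. The highest groups were control 24 h at 7.28 ± 0.16, exposed 72 h at 7.05 ± 0.14 and exposed 24 h at 6.82 ± 0.19 (SD, n = 3), and these stood clear of the others. Other neighbours in the order overlapped.

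Pax6 directs eye, forebrain and spinal cord progenitors. Control signals were 5.16, 5.50 and 5.12 at 24 h, 5.13, 5.69 and 5.30 at 48 h, and 5.91, 6.06 and 5.48 at 72 h. Exposed signals were 5.07, 5.16 and 5.33 at 24 h, 5.56, 5.62 and 5.42 at 48 h, and 5.84, 6.12 and 6.60 at 72 h. Means went up with time in both treatments and the treatments overlapped at each time. The changes were -0.07 ± 0.18, 0.16 ± 0.18 and 0.37 ± 0.18, with adjusted p = 0.874, 0.6505 and 0.5863. Controls rose by 0.56 ± 0.18 from 24 to 72 h (0.03245), although 1 array of 72 h lay below the highest of 24 h. That call was lost without control replicate 1 or 3 of 24 h, or 1 or 2 of 72 h (0.09622 to 0.1374). Exposed cultures rose by 1.00 ± 0.18 over the same span (0.0006774). A further probe set names Pax6 together with Elp4 and was not used.

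Nes encodes nestin. Its control signals were 7.25, 7.30 and 7.52 at 24 h, 6.48, 6.63 and 6.14 at 48 h, and 7.09, 7.00 and 6.64 at 72 h. Its exposed signals were 7.21, 7.08 and 7.17 at 24 h, 6.65, 6.83 and 6.41 at 48 h, and 7.31, 7.00 and 7.87 at 72 h. The dip at 48 h was seen in both treatments, and exposed and control arrays overlapped at 48 and 72 h. The changes were -0.20 ± 0.18, 0.22 ± 0.18 and 0.49 ± 0.18, with adjusted p = 0.5828, 0.5099 and 0.4014. Controls fell by 0.94 from 24 to 48 h (0.002033). Of neighbours in the order of the 6 groups, only the 24 h groups of control and exposed arrays stood clear of each other.

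Neurog2, a proneural factor, was the flattest of the 9 genes, with a range of 0.46 over all 18 arrays. Control signals were 6.29, 6.33 and 6.11 at 24 h, 6.20, 6.17 and 6.30 at 48 h, and 6.28, 6.26 and 6.28 at 72 h. Exposed signals were 6.48, 6.24 and 6.26 at 24 h, 6.23, 6.14 and 6.57 at 48 h, and 6.52, 6.55 and 6.31 at 72 h. Only at 72 h did the exposed arrays lie clear of the controls, by a narrow margin. The changes were 0.08 ± 0.10, 0.09 ± 0.10 and 0.19 ± 0.10, with adjusted p = 0.7197, 0.6552 and 0.6601. All neighbours in the order of its 6 groups overlapped.

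Otx2, a homeodomain factor of the epiblast and the forebrain and midbrain, was the only 1 of the 9 to change with exposure at a single time. Its control signals were 8.18, 8.20 and 8.32 at 24 h, 8.38, 8.21 and 8.38 at 48 h, and 8.12, 7.97 and 7.74 at 72 h. Its exposed signals were 7.76, 7.89 and 8.07 at 24 h, 7.81, 7.86 and 7.79 at 48 h, and 8.41, 7.91 and 8.38 at 72 h. All exposed arrays were lower at 24 and 48 h, and the groups overlapped at 72 h. The change was -0.33 ± 0.12 at 24 h (adjusted p = 0.1289), -0.50 ± 0.12 at 48 h (0.02579) and 0.29 ± 0.12 at 72 h (0.4723). The 48 h fall, to 0.706 of control, passed in 22 of 27 alternatives, from -0.56 to -0.44. It was lost on leaving out control replicate 1 or 3 or any 1 exposed array of 48 h (0.05184 to 0.08337). All neighbours in the order of its groups overlapped.

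Pou3f1, also called Oct6, is a POU factor of the epiblast and early neural plate. Control signals were 6.57, 6.40 and 6.55 at 24 h, 5.66, 6.17 and 5.94 at 48 h, and 5.83, 5.98 and 5.71 at 72 h. Exposed signals were 6.31, 6.40 and 6.26 at 24 h, 5.95, 5.69 and 5.81 at 48 h, and 6.09, 5.71 and 6.32 at 72 h. The treatments overlapped at each time, and both were highest at 24 h. The changes were -0.18 ± 0.14, -0.11 ± 0.14 and 0.20 ± 0.14, with adjusted p = 0.5058, 0.6925 and 0.7405. Controls fell by 0.58 from 24 to 48 h (0.009237), a call lost without control replicate 1 of 48 h (0.06064). All neighbours in the order of its groups overlapped.

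**Figure D2:**
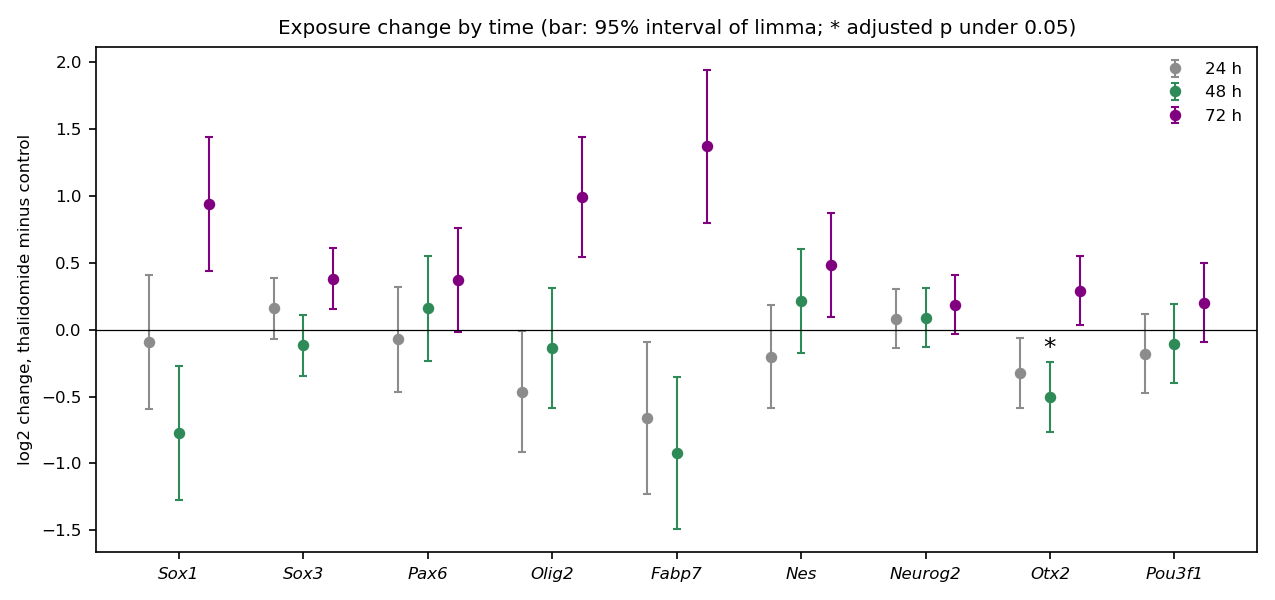
Log2 change, thalidomide minus control, of each gene at 24 h (grey), 48 h (green) and 72 h (purple). Bars are 95% intervals of limma's fit, which used 1 spread per gene over all times. An asterisk marks an adjusted p under 0.05. The only asterisk is that of Otx2 at 48 h (-0.50), and the 72 h points of Fabp7, Olig2 and Sox1 lie highest, at 1.37, 0.99 and 0.94.

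Counted by arrays rather than by p, 5 of 9 genes had groups that did not overlap at 24 h, 4 with all exposed arrays lower (Olig2, Fabp7, Nes, Otx2) and Sox3 higher. Over all genes 25.1% did not overlap, 15.9% with the exposed arrays lower. At 48 h 3 of 9 did not overlap (Sox1, Fabp7, Otx2), all lower, against 29.2% of all genes in either direction and 16.9% with the exposed arrays lower. At 72 h 5 of 9 did not overlap (Sox1, Sox3, Olig2, Fabp7, Neurog2), all with exposed arrays higher, against 7.27% of all genes in that direction.

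The 72 h values of most of the 9 genes rested in part on replicate 3 of each group. The control of that number lay below both others for 7 of 9 genes, against 35.2% of all genes, and the exposed one lay above both others for 7 of 9, against 33.7%. Both held together for 6 of 9 genes (Sox1, Pax6, Olig2, Fabp7, Nes and Pou3f1), against 13.3% of all genes. Sox3 in controls and Otx2 in exposed cultures had replicate 3 between the other arrays, and exposed Olig2 had it above both by little, 7.15 against 7.11 and 6.89. For Fabp7 the control replicate 3 lay 0.85 below the mean of the others, and the exposed one 1.09 above. Without both arrays the median change of the 9 genes was 0.26 instead of 0.38, and 0 of 9 passed. Fabp7 then changed by 0.72 ± 0.19 (limma's adjusted p = 0.9407), Olig2 by 0.61 ± 0.17 (0.9977) and Sox1 by 0.45 ± 0.21 (1). Nes lay at 0.11 instead of 0.49, Otx2 at 0.11 instead of 0.29, Sox3 at 0.26 instead of 0.38, and Pax6 and Pou3f1 at -0.002 and -0.0015. Neurog2 went the other way, to 0.27. The same omission lowered the estimate of spread, so that Fabp7 passed at 24 h (0.02097) and Sox1 (0.01949), Fabp7 (0.005592) and Otx2 (0.02082) passed at 48 h, with no value of those times altered.

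**Figure D3:**
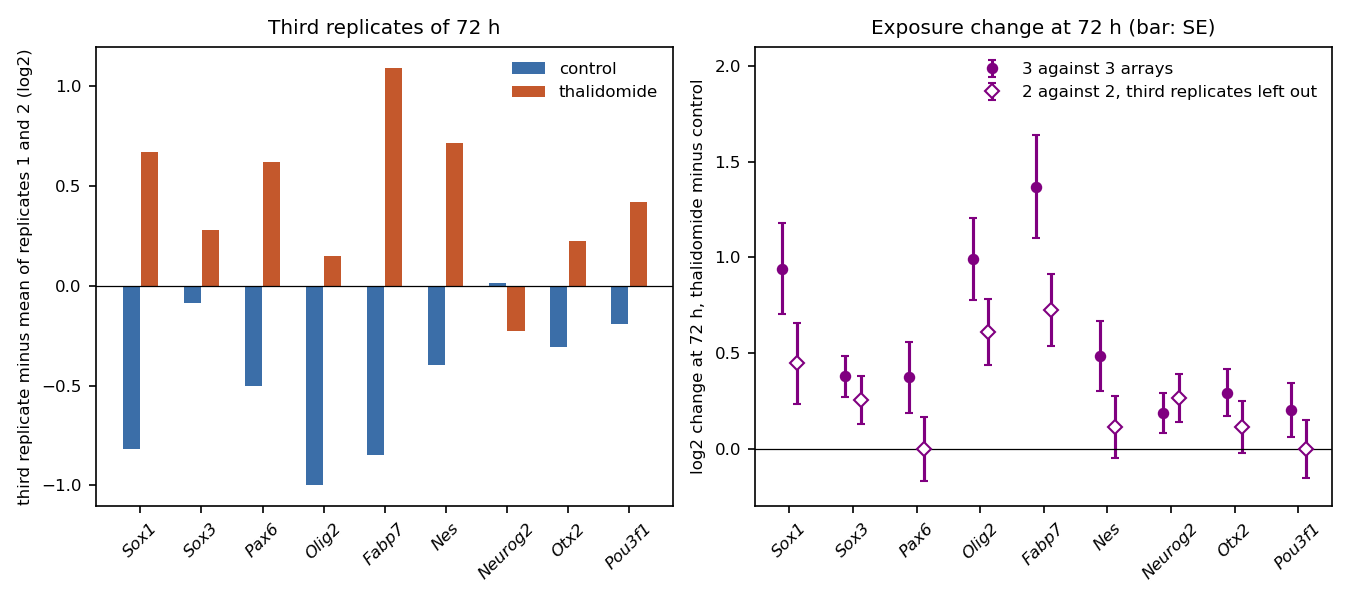
Left, distance of replicate 3 of 72 h from the mean of replicates 1 and 2 (log2 units) for each gene, controls in blue and thalidomide in orange. Right, log2 change at 72 h with SE from all 3 against 3 arrays (filled) and from 2 against 2 without replicate 3 (open), where Fabp7 moves from 1.37 to 0.72 and Pax6 from 0.37 to about 0.

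In controls Olig2, Nes and Pou3f1 fell between 24 and 48 h, and the other 6 genes did not pass. These 3 of 9, all lower, stood against 13.6% of all genes in either direction and 6.7% that fell. Olig2 fell by 1.78, to 0.291 of its level (adjusted p = 2.485e-05). Between 48 and 72 h 0 of 9 passed by limma, 4 at an unadjusted p under 0.05 (Pax6, Olig2 and Nes higher, Otx2 lower), against 6.53% and 19.1% of all genes. Without control replicate 3 of 72 h Olig2 rose by 0.89 in that step (0.003239), and without exposed replicate 2 of 72 h, which alters the spread only, Otx2 passed (0.02788). From 24 to 72 h 4 of 9 passed, with Pax6 higher and Olig2, Fabp7 and Pou3f1 lower, against 27.5% of all genes, a near share in view of the large background. Olig2 fell by 1.22 (0.0003328) and Pou3f1 by 0.67 (0.001623). In the same span 11 of 12 genes of the epiblast list passed, 10 lower against 14.3% of all genes, among them Fgf5 from 9.20 to 5.32 and Nanog from 9.13 to 4.82.

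In exposed cultures 2 of the 9 genes fell in the earlier step and 6 rose in the later one. Exposed arrays of 24 h carry the re-analysis tag and those of 48 and 72 h do not. In steps from 24 h time and tag therefore cannot be told apart. Between 24 and 48 h 2 of 9 fell, against 10.1% of all genes in either direction and 4.36% that fell. Olig2 fell by 1.45 (adjusted p = 0.0002821) and Pou3f1 fell by 0.51 (0.02682). The call of Pou3f1 was lost without replicate 1 or 2 of exposed 24 h or 2 or 3 of exposed 48 h (0.06565 to 0.09558). Between 48 and 72 h 6 of 9 rose and none fell, against 10.2% of all genes in either direction and 6.42% that rose. Fabp7 rose by 1.84 ± 0.27 (0.0004813), Olig2 by 1.69 ± 0.21 (0.0001384) and Sox1 by 1.27 ± 0.24 (0.002937), which kept their calls on leaving out each single array. Fabp7 had the 8th and Olig2 the 15th highest change of all genes. Nes rose by 0.76 ± 0.18 (0.01408), Pax6 by 0.65 ± 0.18 (0.03292) and Otx2 by 0.41 ± 0.12 (0.0418). Nes was lost without replicate 3 of exposed 48 or 72 h, at most to 0.06736. Pax6 was lost without any 1 exposed array of 48 h or exposed replicate 2 or 3 of 72 h, at most to 0.1363. Otx2 was lost on leaving out any 1 of 9 arrays, at most to 0.1752: exposed 48 h replicates 1, 2 and 3, exposed 72 h replicates 1 and 3, exposed 24 h replicate 2, and control replicate 1 of 24 h, 3 of 48 h and 2 of 72 h. Without replicate 3 of both 72 h groups all 9 genes still lay above their 48 h means and 4 passed, Sox1 (1.05), Olig2 (1.64), Fabp7 (1.48) and Nes (0.52). From 24 to 72 h 3 of 9 rose, Sox1 by 1.27 (0.0007791), Pax6 by 1.00 and Fabp7 by 1.22 (0.002959), against 25.1% of all genes in either direction and 14.4% that rose.

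The exposure effect itself was then compared between times. These contrasts share arrays with those above and are not separate evidence. In those against 24 h the time and the re-analysis tag of the exposed arrays cannot be told apart. From 24 to 48 h the effect of 0 of 9 genes and of 0 of 22180 genes differed (limma), or 0%, and 0 of 9 had an unadjusted p under 0.05, against 7.67% of all genes. From 48 to 72 h it differed for 1 of 9, Fabp7, by 2.29 ± 0.38 (0.03025), against 0.0947% of all genes. Sox1 followed at 1.71 ± 0.33 (0.05723) and Otx2 at 0.79 ± 0.17 (0.06983). The Fabp7 call was lost on leaving out any 1 of 8 arrays (0.05053 to 0.07168), namely control replicates 1 and 2 of 48 h, the 3 controls of 72 h, exposed replicates 1 and 3 of 48 h and exposed replicate 1 of 72 h, and it held without both replicates 3 of 72 h (1.65, 0.04536). From 24 to 72 h it differed for 2 of 9, Fabp7 by 2.03 ± 0.38 (0.03123) and Olig2 by 1.46 ± 0.30 (0.0439), against 0.496% of all genes. Fabp7 was lost without any control of 24 h, control replicate 3 of 72 h, exposed replicate 1 or 2 of 24 h or exposed replicate 1 of 72 h (0.05183 to 0.08238). Olig2 was lost on leaving out any 1 of 14 arrays (0.05225 to 0.1151), all but control replicates 1 and 2 of 72 h and exposed replicates 2 and 3 of 48 h.

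The genes whose signal ran most like that of each member over the 18 arrays are given as a description, since all points share the 6 groups and the 2 arrays that stand apart at 72 h. Pax6 ran closest to Pou3f2 (r = 0.92), Crabp2 (0.91) and Hes5 (0.91). Olig2 ran closest to the cell adhesion gene Nrcam (0.94), the axon guidance gene Ntn1 (0.91) and Nes (0.89). Fabp7 was followed by Lrrn1 (0.88), Fmn2 (0.88) and the neural POU factor Pou3f4 (0.86), and Nes by Olig2 (0.89), Nrcam (0.87) and Ank2 (0.85). Sox1 had Vgll3 (0.89), Mylk (0.87) and the Wnt antagonist Sfrp2 (0.86). Pou3f1 had Pltp (0.90), Cwc22 (0.89) and the activin antagonist Fst (0.89). Otx2 had Mettl16 (0.86), Gfus (0.86) and Prepl (0.85). The weakest likeness was that of Sox3 (Mfsd6l 0.78, Hs3st1 0.77, Pla2g5 0.76) and Neurog2 (Txndc2 0.78, Olfr191 0.78, Dock2 0.75). Among the members, Fabp7 and Nes shared their deviations from the group means most closely (r = 0.88 over 18 arrays), and Neurog2 and Nes deviated in opposite directions (-0.65).

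Other neural genes also lay mostly above control at 72 h, but less so without replicate 3 of both groups. The lists held 25 measured early neural regulators, 14 brain patterning genes, 13 dorsoventral patterning genes, 20 proneural and neuronal genes and 12 glial genes. Of these 0 passed at 72 h, against 0.00902% of all genes, so that count says little. Above 0 lay 13 of 13 dorsoventral genes (median 0.23), 18 of 20 proneural genes (0.33), 12 of 14 brain patterning genes (0.10), 19 of 25 early neural regulators (0.10) and 9 of 12 glial genes (0.06), against 51.3% of all genes. Without replicate 3 of both groups these became 12 of 13, 17 of 20, 8 of 14, 13 of 25 and 8 of 12, against 11178 of 22180 genes. Their medians were then 0.09, 0.21, 0.03, 0.01 and 0.04. The smallest p of the proneural list was that of Nhlh1, a bHLH factor of newborn neurons (0.77 ± 0.15, adjusted p = 0.09605), and of the dorsoventral list that of Pax3 (0.59 ± 0.17, 0.2669). Dlx2 (0.30, 0.23), Sox21 (0.35, 0.2019) and the matrix gene Tnc (-0.96, 0.1619) had the smallest p of the brain patterning, early neural and glial lists.

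Of the 84 genes in these 5 neural lists, 4 passed at 24 h (4.76%, against 6.86% of all genes), 1 in each of 4 lists, and 3 rose while 1 fell. Sox21, a SOX factor that favours neuronal differentiation, rose by 0.34 (adjusted p = 0.03558), Pax2 of the midbrain-hindbrain boundary by 0.44 (0.03243) and Myt1, a neuronal zinc finger factor, by 0.32 (0.04775), while Olig1, the neighbour and relative of Olig2, fell by 0.58 (0.01419). At 48 h 4 of 84 passed (4.76%, against 6.08% of all genes in either direction and 4.23% that fell), all lower: the microtubule regulator Stmn2 by 0.81 (0.01535), Ebf2 by 0.46 (0.02628), Pou3f4 by 0.41 (0.02916) and Irx5 by 0.24 (0.04791). Several of these calls were lost on leaving out 1 array. Sox21 was lost without any 1 of 5 arrays, Pax2 of 5, Myt1 of 13, Ebf2 of 5, Pou3f4 of 6 and Irx5 of 15, Stmn2 without control or exposed replicate 2 of 48 h (at most 0.05555), and Olig1 without control replicate 3 of 24 h (0.07851). Of the glial list 0 passed at 24 or 48 h, where Fabp5 (-0.21, 0.1627) and Aldh1l1 (0.37, 0.07575) had the smallest p.

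**Figure D4:**
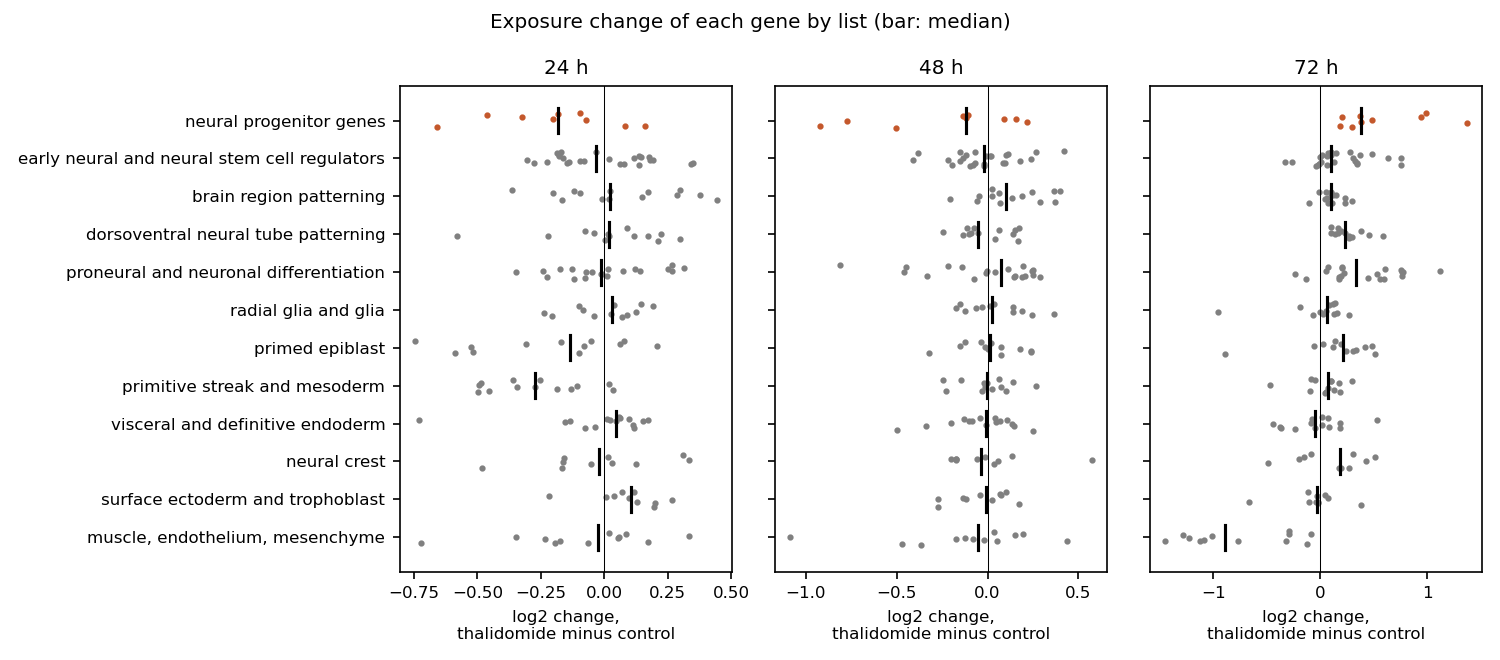
Log2 change, thalidomide minus control, of every measured gene of each list at 24, 48 and 72 h, with a bar at the list's median and the 9 neural progenitor genes in orange. At 72 h the 9 genes all lie right of 0 (median 0.38) and the 12 genes of muscle, endothelium and mesenchyme all lie left of it (median -0.89).

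Markers of other cells moved with the 72 h result. Of 12 genes of muscle, endothelium and mesenchyme, 12 lay below control at 72 h (median -0.89), against 10801 of 22180 genes. Of the 12, 0 passed, against 0.00902% of all genes. Their mean signal was 8.05 to 8.20 on the controls and 7.75, 7.58 and 6.76 on the exposed arrays, so exposed replicate 3, the highest array for 7 of the 9 neural genes, was the lowest here. Cardiac actin Actc1 read 9.46, 9.40 and 9.46 in controls and 8.73, 8.28 and 6.95 in exposed cultures (-1.45, adjusted p = 0.1302). The endothelial cadherin Cdh5 read 9.14, 9.22 and 9.51 against 8.76, 8.37 and 7.46 (-1.09, 0.1095). Actc1 had the largest change of the list and Cdh5 the smallest p. Col1a1 (-0.09, 0.86) and Tagln (-0.12, 0.859) changed least. Without replicate 3 of both groups 12 of 12 still lay below 0, with a median of -0.38. In controls the same list rose late, 11 of 12 passing between 24 and 72 h, against 13.1% of all genes that rose (Acta2 by 4.57), and its mean at 24 and 48 h lay at 5.73 to 5.86 and 6.21 to 6.43. The part of these cells in the change of the 9 genes, Nes included, was not tested.

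Epiblast genes also lay mostly above control at 72 h, 10 of 12, with a median of 0.21 and 0 passing, against 0.00902% of all genes. Of the 9 genes, Otx2 and Pou3f1 are themselves active in the epiblast. Tdgf1, a co-receptor of Nodal, went the other way (-0.89, adjusted p = 0.1468). The list's mean signal was 6.01, 6.27 and 6.02 on the controls and 6.21, 6.13 and 6.41 on the exposed arrays, so the groups overlapped. Without replicate 3 of both groups 9 of 12 lay above 0, with a median of 0.05. The part of epiblast cells in the change of the 9 genes was not tested.

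Shifts of the other lists were in part as large as those of the neural lists. At 24 h the primitive streak and mesoderm genes had a median of -0.27 with 11 of 13 below 0. That median was further from 0 than that of the 9 genes (-0.18). Fgf8, 1 called of 13 against 6.86% of all genes, fell by 0.49 (0.04562). The 12 epiblast genes had a median of -0.14, and Tdgf1 alone passed, against the same 6.86%, falling by 0.75 (0.04317). The keratin Krt8 rose by 0.27 (0.03851). Leaving out 1 array lost Fgf8 in 12 cases, Tdgf1 in 10 and Krt8 in 7. At 48 h Myl7, an atrial myosin light chain, fell by 1.09 (0.04821, lost without any 1 of 13 arrays). Col1a1 rose by 0.44 (0.01066, lost without control replicate 1 of 48 h at 0.0505). These were 2 called of 12, against 6.08% of all genes. At 72 h neural crest genes had a median of 0.18 with 6 of 10 above 0, and 0.08 with 8 of 10 above 0 without replicate 3 of both groups. Of 15 endoderm and 10 neural crest genes 0 passed at any of the 3 times, and of 10 surface ectoderm and trophoblast genes only Krt8 did. Over all genes 6.86%, 6.08% and 0.00902% passed at 24, 48 and 72 h.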

How the data were processed

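Each deposited value is a log2 signal of 1 probe set on 1 array. The authors made it by RMA with Affymetrix Expression Console 1.3, according to their processing notes. The sources used here name no genome build. RMA gives arrays like distributions, so a change is relative to other probe sets and a shift of most transcripts would not show. Names came from GEO's platform annotation. Of 41345 probe sets 23521 had 1 symbol, 1814 had several, and 16010 were not listed. RefSeq's GRCm38.p6 gene table matched 23328 by identifier. Where a gene had several probe sets (1082 of 22180 genes), that with the highest mean was used.

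All 18 arrays entered 1 fit in limma 3.58.1 under R 4.3.3, with 1 mean per group and eBayes (degrees of freedom 12 residual, 4.35 prior). P-values are two-sided, and Benjamini-Hochberg adjustment ran over all 22180 genes per contrast, with a threshold of 0.05. The steps were tested on simulated data. The number of arrays limits precision. Differences between arrays of a group had an SD of at least 0.183, so none was a copy.

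The members and lists were chosen with earlier results of these data known. The rule for names took all members, up to 4 called genes of largest change per list in each exposure contrast (the smallest p where none passed) and in controls of 72 against 24 h, of which a few are given, and the 3 genes most correlated with each member, without predicted loci. Alternatives were cyclic loess, the mean of probe sets, all probe sets, a filter at the median signal, trended robust moderation, array weights, a replicate block, each array left out, replicate 3 of both 72 h groups left out, and only the groups compared.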

Additional observations from a re-analysis of the deposited data

Results flagged for a closer look

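Fabp7 and Olig2 are listed because their exposure effect differed between times by a test of the difference. For Fabp7 the effect at 72 h exceeded that at 48 h by 2.29 (limma, adjusted p = 0.03025) and that at 24 h by 2.03 (0.03123), and exposed arrays went from all below to all above the controls. For Olig2 the effect at 72 h exceeded that at 24 h by 1.46 (0.0439). Over 27 alternatives the adjusted p ran from 0.00604 to 0.1028, 0.007385 to 0.08238 and 0.01194 to 0.1151. The calls passed in 16, 17 and 8 of the 27, the last being that of Olig2. The exposed arrays of 72 h lack the re-analysis tag that those of 24 h carry. In the differences from 24 h this tag and the time of exposure cannot be told apart.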

How the results depend on the processing

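Counts are of the 9 genes called by limma. Without replicate 3 of both 72 h groups, 1 was called at 24 h in place of 0, 3 at 48 h in place of 1, 3 in controls from 48 to 72 h in place of 0, 4 in exposed cultures from 24 to 48 h in place of 2, and 0 for the effect from 24 to 72 h in place of 2. Over all 22180 genes that omission gave 1457, 1341, 937, 2254 and 11 in these contrasts, in place of 1521, 1349, 1448, 2236 and 110. Pax6 (-0.002) and Pou3f1 (-0.0015) then changed sign at 72 h. With only the groups compared, the counts of the 9 genes at 24 h and in exposed cultures from 24 to 48 h were 1 and 4, exposed cultures from 48 to 72 h gave 3 in place of 6, and the effects against 48 and 24 h gave 0 and 0 in place of 1 and 2. All-gene counts there were 121, 1141, 828, 2 and 5, in place of 1521, 2236, 2260, 21 and 110. With the filter at the median signal, 48 and 72 h gave 3 and 2, controls from 48 to 72 h 1, exposed cultures from 24 to 48 h 4, and the effect against 48 h 4. Among all genes kept by the filter, the counts there were 1950, 38, 1697, 2809 and 365. Array weights gave 3 at 48 h, 1 in controls from 48 to 72 h and 2 for the effect against 48 h, trended robust moderation 1 and 3 for the latter pair. All-gene counts were 1603, 1933 and 89 with array weights, and 1882 and 350 with trended robust moderation. With all probe sets, controls from 24 to 72 h gave 2 in place of 4, exposed cultures from 24 to 48 h 1, and both effects 0. Of 41345 probe sets 7700 and 2197 passed there, and 22 and 52 for the effects against 48 and 24 h. Cyclic loess gave 1 for the effect against 24 h, and 75 over all genes. The cause was not tested.

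With each array left out in turn the counts were 0 to 0 at 24 h, 0 to 3 at 48 h, 0 to 1 at 72 h, 2 to 4, 0 to 1 and 2 to 6 in controls (24 to 48, 48 to 72, 24 to 72 h), 1 to 3, 3 to 6 and 3 to 4 in exposed cultures, and 0 to 0, 0 to 3 and 0 to 2 for the effects (48 against 24, 72 against 48, 72 against 24 h). Over all genes, in the same order, the exposure contrasts gave 581 to 1495, 494 to 1549 and 0 to 81. Controls gave 2026 to 3166, 805 to 1544 and 4938 to 6281. Exposed cultures gave 1541 to 2282, 1275 to 2434 and 4356 to 5553, and the effects 0 to 0, 2 to 31 and 8 to 119. Changes near 0 crossed it: at 24 h Sox1 from -0.2189 to 0.048 and Pax6 from -0.1441 to 0.0452, at 48 h Sox3 from -0.2029 to 0.008, Pou3f1 from -0.2372 to 0.0145 and Neurog2 from -0.0406 to 0.1771.

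Of 45 pairs of arrays with the same replicate number 11 had deviations correlated over 0.1 (range -0.23 to 0.18). Arrays of different numbers were not compared, so this cannot decide whether the numbers pair the arrays. A replicate block left 0 called for the effect at 72 against 48 h (Fabp7, limma's adjusted p = 0.05941) and 1 for that against 24 h (Olig2 at 0.05503), and Sox3 passed in exposed cultures from 48 to 72 h (0.03916). It changed no other call of the 9 genes. Of the named genes of other lists, whose alternatives were added after seeing the data, it ended the calls of Irx5 (0.06447), Tdgf1 (0.05714), Fgf8 (0.0554), Krt8 (0.05716) and, in controls from 24 to 72 h, Egr2 (0.0525), and it added Twist1 of the neural crest list at 24 h (-0.48, 0.04342).

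Counts over all genes moved as well. At 24 and 48 h 1521 and 1349 became 121 and 163 with only the groups compared, and at least 581 and 494 with 1 array left out. At 72 h 2 became 38 with the filter, 30 with trended robust moderation, and 0 to 81 with 1 array left out. The effect at 72 h gave 21 and 110 against 48 and 24 h, and 365 and 640 with the filter. Cyclic loess moved no median by over 0.1.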
